A study of Mus musculus with 10 samples.

Results

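Clustered protocadherins are cell surface adhesion proteins of the cadherin superfamily, encoded in 3 neighbouring gene clusters, alpha (Pcdha), beta (Pcdhb) and gamma (Pcdhg), on mouse chromosome 18. The genes were chosen by symbol, as those of the count table whose symbol in the GRCm38 annotation begins with Pcdha, Pcdhb and a digit, or Pcdhg and a, b or c. This gave 58 of the 43629 genes of the table, of which 14 were alpha, 22 beta and 22 gamma. Expression was measured by RNA sequencing of the whole hippocampus, with 1 library per mouse. The mice were 5 Dp1Tyb males and 5 wild-type (WT) male littermates. The labels give the age as 18 weeks and the strain as C57BL/6J.129P2 for both groups, which were backcrossed to C57BL/6J. The methods of the study put the age slightly higher than the labels. Dp1Tyb mice carry the allele Dp(16Lipi-Zbtb21)1TybEmcf, a duplication of the part of chromosome 16 that is orthologous to human chromosome 21, and are a model of Down syndrome. The protocadherin clusters lie on another chromosome and are not duplicated. The labels list no treatment for either genotype. The question was therefore whether genes outside the duplicated segment, here a family with a role in neuronal wiring, differed in level between Dp1Tyb and WT hippocampus. The p-values below measure the spread between these mice, and in bulk tissue fewer cells of a type cannot be told apart from less RNA per cell.

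Each neuron uses its own combination of protocadherin isoforms. In the alpha and gamma clusters every isoform has its own promoter and a large variable exon, which encodes the extracellular and transmembrane parts and is spliced to constant exons common to the whole cluster, while beta genes consist of a single exon with no constant part. The alternate isoforms (most alpha, the beta, and the A-type and B-type gamma isoforms) are chosen largely at random in each cell, through promoter DNA methylation, the insulator protein CTCF and cohesin. The C-type isoforms (Pcdhac1, Pcdhac2, Pcdhgc3, Pcdhgc4 and Pcdhgc5) are used more uniformly by neurons of a type. The proteins bind identical combinations on other membranes, which lets neurites of the same neuron recognise and avoid each other, and gamma isoforms are also needed for neuron survival and dendrite branching.

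The locus spans chr18:36930184-37841873 of GRCm38 on the plus strand, with the alpha cluster at chr18:36930184-37187661, the beta cluster at chr18:37264938-37524479 and the gamma cluster at chr18:37661793-37841873. In the GENCODE M21 annotation, all 14 alpha genes share 3 constant exons of 59, 89 and 2712 bases, or 2860 bases in total. All 22 gamma genes share 3 constant exons of 59, 89 and 1968 bases, or 2116 bases. These constant exons made up 38.0% to 54.9% of the exon bases of an alpha gene and 27.7% to 45.9% of those of a gamma gene. Reads that fall in them belong to every isoform of the cluster and, with the usual setting of the counter, are assigned to none, so the counts of an alpha or gamma gene report mainly its variable exon. Beta genes had 0 constant bases, and only Pcdhb21 and Pcdhb22 overlapped each other, by 455 bases. To compare levels between genes, CPM values (counts scaled to a library of fixed size with TMM factors) were therefore divided by the kilobases of exon that no other gene on the same strand shares.

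The number of counts behind these genes was small. The 58 genes together received 9393 to 21028 counts per sample, which is 0.0476% to 0.0552% of the 18227684 to 43692270 counts of a library. A total of 53 genes passed the filter on low counts and were tested among 17237 genes, namely 11 alpha, 21 beta and 21 gamma. The 5 genes that did not pass it were near the detection limit in both genotypes. Pcdhga10, an A-type gamma isoform, had 0 counts in every sample. If its reads could be assigned to it, this allows a level of up to 0.0688 to 0.163 CPM per library (3 counts, counting error only). Pcdha11 had 0 to 2 counts per sample and Pcdha4 had 0 to 4. Pcdha8 had 2 to 17 counts and Pcdhb1, the first gene of the beta cluster, had 3 to 15. For Pcdha4, 83.0% of the variable exon overlaps the read-through gene model Gm42416 on the same strand, and that model, like the 3 other read-through models of the locus, had no base of its own and 0 counts in every sample. No same-strand gene model overlaps the variable exon of Pcdhga10 or Pcdha8. The span of an antisense gene lies over the variable exons of Pcdhga10, Pcdha11 and Pcdha4, and the strand setting of the counting was not stated. The span over Pcdhga10 also lies over Pcdhgb7, Pcdhga11, Pcdhgb8 and Pcdhga12, which had 1372, 2962, 527 and 3464 counts over all samples. That over Pcdha11 also lies over Pcdha12, which had 1232. The annotation release used for the deposited counts was not stated. The part of any such overlap in the low counts of the 5 untested genes was not tested.

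Among the 58 genes, C-type isoforms stood at the top. Pcdhgc5, the last gene of the gamma cluster, had the highest level, 20.7 ± 1.28 CPM per kb (SD over 10 mice), and Pcdhac2, the last of the alpha cluster, was next at 11.3 ± 1.22 CPM per kb. Pcdhgc3 followed at 6.72 ± 0.685 CPM per kb. Each of the first pair was above the next gene in the order in 10 of 10 mice, and Pcdhgc3 was above the A-type isoform Pcdhga3 (6.14 ± 0.918 CPM per kb) in 9 of 10. The remaining C-type isoforms were not set apart in this way, since Pcdhgc4 had 3.33 ± 0.498 CPM per kb and Pcdhac1 1.54 ± 0.206 CPM per kb, within the range of the alternate isoforms. The highest beta gene was Pcdhb9, at 4.79 ± 0.418 CPM per kb. From the A-type isoform Pcdhga2 (5.01 ± 0.712 CPM per kb) down to Pcdha6, a gene exceeded the next in the order in at most 8 of 10 mice. The order ended, among tested genes, with Pcdhgb8 at 0.761 ± 0.150 CPM per kb, which the annotation lists as a polymorphic pseudogene, and Pcdha1 at 0.491 ± 0.148 CPM per kb.

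**Figure D1:**
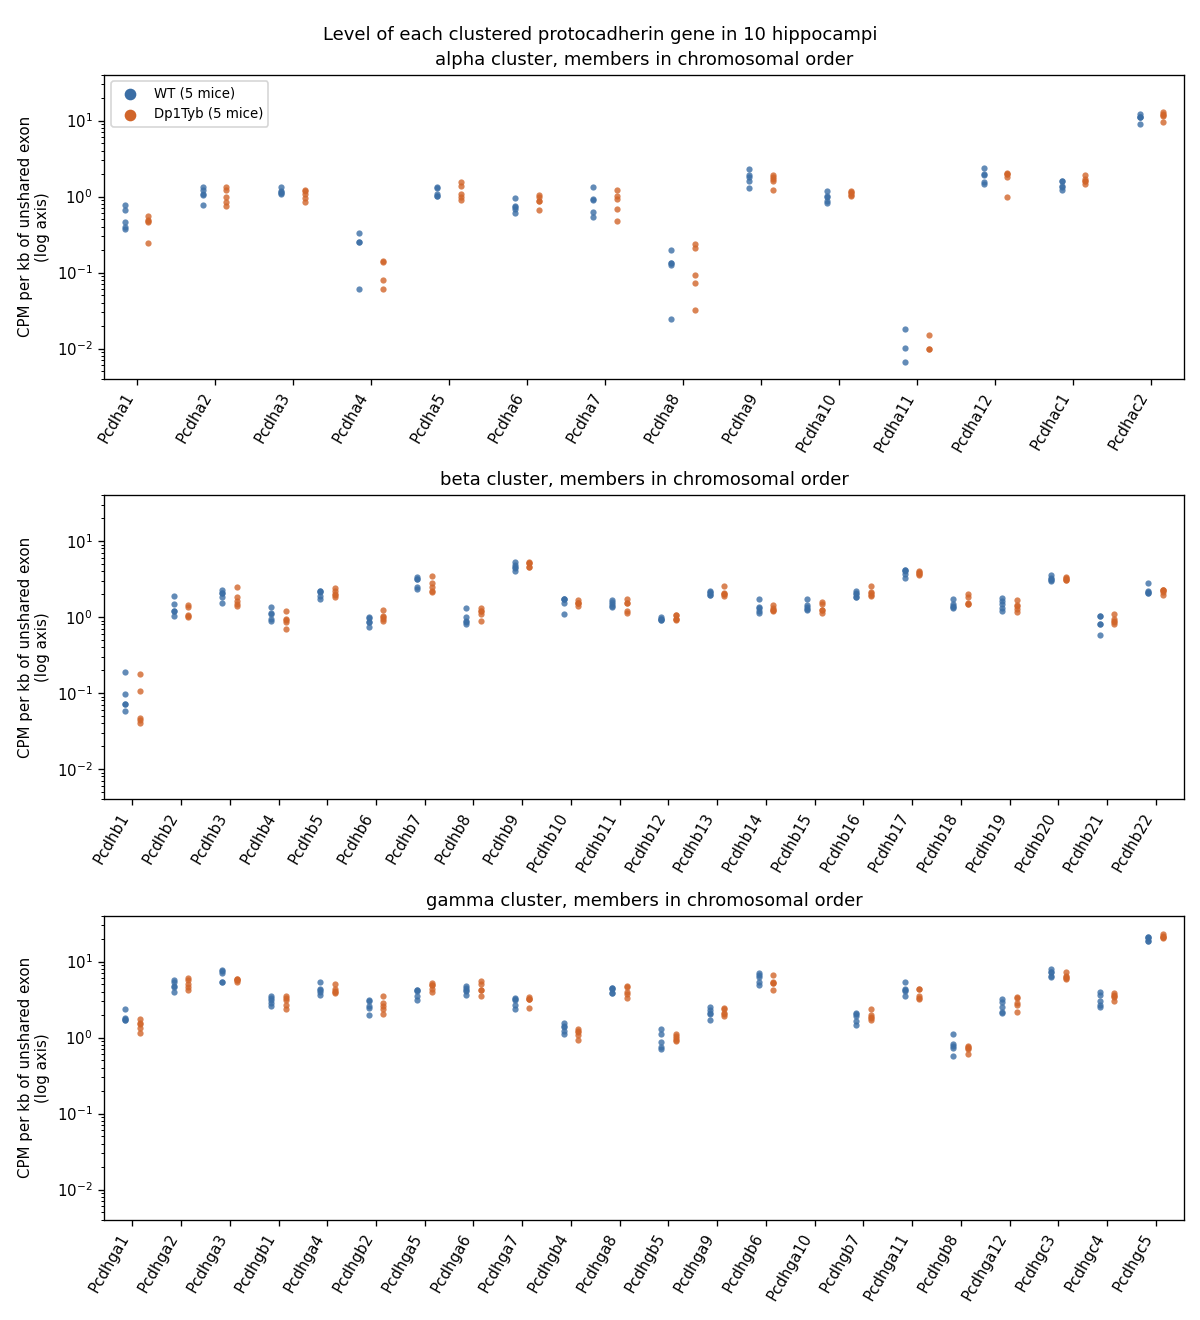
Level of each clustered protocadherin gene, in CPM per kilobase of unshared exon on a log axis, with 1 point per mouse (blue, 5 WT; orange, 5 Dp1Tyb) and genes in chromosomal order within each cluster; samples with 0 counts are not drawn. Pcdhac2 and Pcdhgc5 stand above the other genes of their clusters, Pcdha4, Pcdha8, Pcdha11 and Pcdhb1 lie far below, Pcdhga10 has no point, and the points of both genotypes overlap at every tested gene.

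The clusters differed in typical level. The median over tested genes was 1.117 CPM per kb for alpha, 1.56 for beta and 3.33 for gamma. Within gamma, the 11 tested A-type isoforms had a median of 4.14 CPM per kb and the 7 B-type isoforms a median of 1.89. The A-type median was above the B-type median in 10 of 10 mice, with ranges of 3.35 to 4.29 and 1.54 to 2.34 CPM per kb. The gaps between the clusters depend on the length used. Over all genes of a cluster, tested or not, the median went from 1.05 to 0.488 CPM per kb for alpha and from 3.18 to 1.83 for gamma when all exon bases were counted, constant exons included, and stayed at 1.505 for beta, so the order of the clusters was the same. Over the 11 tested alpha genes, levels were higher toward the constant exons. Spearman's rho between gene order and level was 0.68, against 0.19 for 21 beta and 0.018 for 21 gamma genes. The filter on low counts left out Pcdha4, Pcdha8 and Pcdha11, at 0.132, 0.126 and 0.00698 CPM per kb. They lie nearer the constant exons than Pcdha1, Pcdha2 and Pcdha3, which had higher levels, and so go against this trend. They rest on 18, 86 and 9 counts over all samples. For Pcdha4 only 494 bases are unshared, so its level is the least certain. These values are descriptions over genes that share the same libraries.

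The tissue label and the other cell types in the samples were checked with marker genes. All 7 hippocampal neuron markers were present in every sample, with summed levels of 1054 to 1210 CPM in WT and 1092 to 1169 CPM in Dp1Tyb. The sum hides opposite signs. Prox1 and Neurod2 had log2 fold changes of -0.18 and -0.31, and Neurod6 had 0.15. Each of these 3 was under an unadjusted p of 0.05 by edgeR, with adjusted p of 0.184, 0.209 and 0.176. Choroid plexus markers varied widely between mice, from 433 to 5480 CPM in WT and from 39.0 to 3942 CPM in Dp1Tyb. None of the 10 was at 0 in any sample, all 10 had a negative estimate and 0 were called by edgeR, with 0 under an unadjusted p of 0.05. The replicate 1 and 4 Dp1Tyb mice (39.0 and 47.1 CPM) and the replicate 2 WT mouse (433 CPM) had the lowest sums. Of the astrocyte markers, 1 of 6 was called (1.11% of all genes tested were), Gfap, which rose in Dp1Tyb from 362 ± 16.6 to 433 ± 25.7 CPM (SD, n = 5, edgeR adjusted p = 0.0167). Summed endothelial markers were 118 to 136 CPM in WT and 113 to 122 CPM in Dp1Tyb, and 0 of 3 were called by edgeR, with 2 under an unadjusted p of 0.05. The edgeR count was 0 of 7 for hippocampal neurons (3 unadjusted), 0 of 5 for oligodendrocytes (1 unadjusted), 0 of 4 for microglia (1 unadjusted) and 0 of 4 for thalamus (1 unadjusted), where 14.4% of all genes were under the unadjusted threshold. DESeq2 and limma voom gave the same numbers for these lists, except that DESeq2 called 2 of 6 astrocyte markers, Gfap and Aqp4, and that limma voom had 2 choroid plexus markers under the unadjusted threshold. The part of cell types other than choroid plexus in the protocadherin levels was not tested.

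No clustered protocadherin passed the test for a difference between Dp1Tyb and WT. With edgeR's quasi-likelihood test and Benjamini-Hochberg adjustment over all genes, 0 of 11 alpha, 0 of 21 beta and 0 of 21 gamma genes had an adjusted p under 0.05, against 1.11% of all 17237 genes tested (0.87% were called higher and 0.238% lower). At an unadjusted p under 0.05 the counts were 0 alpha, 0 beta and 2 gamma genes, that is 3.77% of the 53 genes against 14.4% of all genes. DESeq2 also called 0, with 0, 0 and 2 genes under the unadjusted threshold, and limma voom called 0, with 1, 0 and 2. In none of the 53 genes were the 5 WT and 5 Dp1Tyb mice fully separated, against 3.68% of all genes. The smallest adjusted p of any of these genes was 0.233, and it was 0.153 over all 19 fits made. With the choroid plexus level as a covariate edgeR called 0 (unadjusted 0 alpha, 1 beta and 1 gamma). Without the 3 libraries of lowest choroid plexus level, an alternative chosen after the data were seen, it called 0 as well (unadjusted 1, 3 and 1).

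The estimated changes were small and went both ways. Of the 53 genes, 25 had a log2 fold change above 0 (48.7% of all genes did) and 28 below it, with a median of -0.011 against -0.0041 over all genes. The medians were -0.067 for alpha, -0.016 for beta and 0.013 for gamma, and the extremes were -0.35 and 0.29. The median absolute log2 fold change was 0.10, against 0.086 over all genes. A change of 1.5-fold in either direction lay outside the 95% interval for 50 of the 53 genes, namely 9 of 11 alpha, 21 of 21 beta and 20 of 21 gamma, while the same held for 79.2% of all genes tested. The exceptions were Pcdha1 and Pcdha7, with the lowest counts or widest spread of the alpha cluster, and Pcdhga1. The biological coefficient of variation (the spread between mice beyond counting error) had a median of 0.128 over the 53 genes, against 0.0914 over all genes, and ranged from 0.0592 for Pcdhgc5 to 0.284 for Pcdha7.

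**Figure D2:**
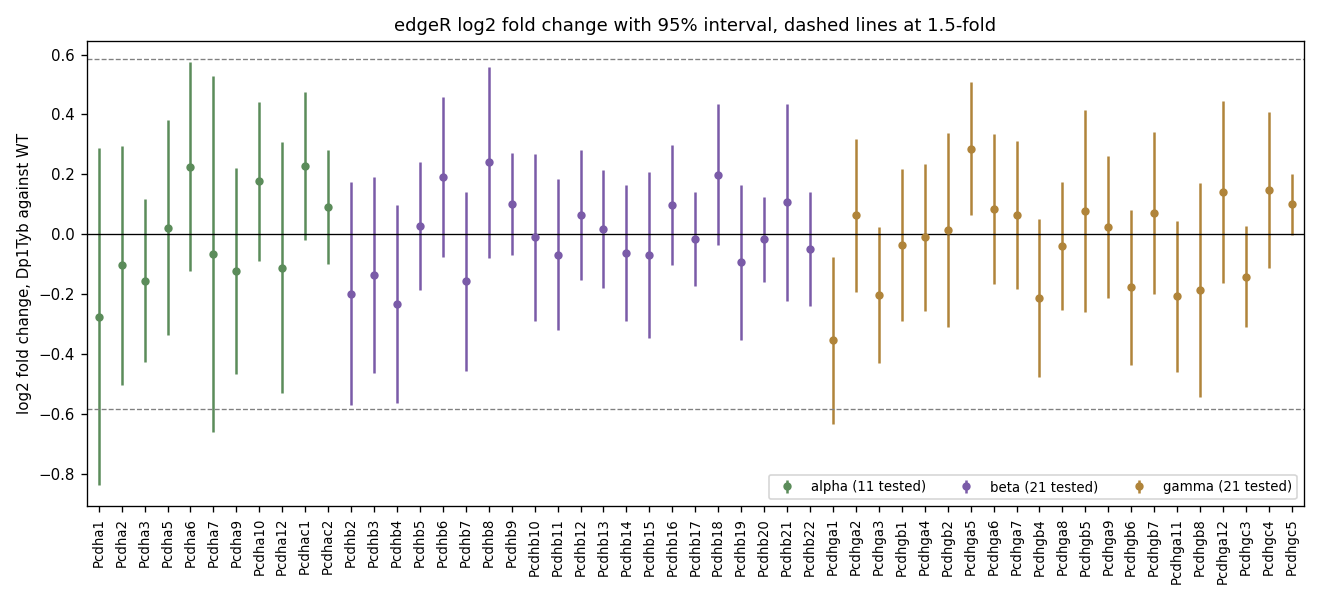
Log2 fold change of Dp1Tyb against WT for the 53 tested genes in chromosomal order (edgeR, points, with 95% intervals as bars; colours mark the clusters; dashed lines mark 1.5-fold). Estimates lie between -0.35 and 0.29, and the intervals of Pcdhga1 and Pcdhga5 alone leave out 0, neither passing adjustment over all genes.

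In the alpha cluster, the level was dominated by Pcdhac2. In the WT mice, replicates 1 to 5, it measured 27.1, 34.2, 33.8, 37.0 and 34.0 CPM, and in the Dp1Tyb mice 29.3, 36.9, 35.0, 39.7 and 36.1 CPM. The first replicate of each genotype had the lowest value and the groups overlapped. Means were 33.2 ± 3.66 CPM in WT against 35.4 ± 3.81 CPM in Dp1Tyb (SD, n = 5), with an estimated log2 fold change equal to 0.091 ± 0.089 (SE, edgeR adjusted p = 0.665). Without WT replicate 1 it was 0.024 and without Dp1Tyb replicate 1 it was 0.15. The other C-type isoform, Pcdhac1, measured 3.45, 4.16, 4.07, 3.09 and 3.50 CPM in WT and 4.15, 4.90, 4.08, 4.42 and 3.70 CPM in Dp1Tyb. All 5 Dp1Tyb values were above the WT mean but 3 of them lay within the WT range, with an estimated log2 fold change equal to 0.23 ± 0.12 (SE, edgeR adjusted p = 0.388). Pcdhac1 had the smallest unadjusted p of the alpha genes, 0.0688.

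The alternate alpha isoforms were low, at 1.117 CPM (Pcdha1, Dp1Tyb mean) to 4.64 CPM (Pcdha12, WT mean) in the group means of the 9 tested. Pcdha12 measured 3.89, 3.66, 4.77, 5.93 and 4.94 CPM in WT and 2.43, 5.004, 4.48, 4.85 and 4.93 CPM in Dp1Tyb. The replicate 1 Dp1Tyb mouse had the lowest value and the others overlapped with WT, with an estimated log2 fold change equal to -0.11 ± 0.19 (SE, edgeR adjusted p = 0.826). That mouse was the lowest of the 10 for 6 of the 9 tested alternate alpha genes. Its summed alternate alpha level was 18.4 CPM, against 23.0 CPM in the replicate 1 WT mouse and 22.4 to 28.7 CPM in the other 8 mice. Pcdha9 measured 4.47 ± 0.934 CPM in WT against 4.13 ± 0.676 CPM in Dp1Tyb (SD, n = 5), with an estimated log2 fold change equal to -0.12 ± 0.16 (SE, edgeR adjusted p = 0.754). Pcdha6 and Pcdha10 had positive estimates, 0.23 ± 0.16 (SE, adjusted p = 0.547) and 0.18 ± 0.12 (SE, adjusted p = 0.534) in log2 fold change by edgeR. Pcdha1, the lowest tested alpha gene, had an estimated log2 fold change equal to -0.28 ± 0.26 (SE, edgeR adjusted p = 0.655). Leaving out Dp1Tyb replicate 1 gave -0.097, leaving out WT replicate 2 gave -0.12, and the value was -0.0099 without the 3 libraries of lowest choroid plexus level.

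The beta genes encode shorter cytoplasmic tails than the alpha and gamma isoforms, and their counts cover the whole transcript. Among tested genes they were the most even cluster. Levels had a 5.43-fold range in CPM per kb, from Pcdhb9 down to Pcdhb21. Tested genes spanned 0.491 to 11.3 CPM per kb in alpha and 0.761 to 20.7 in gamma. The 9 tested alternate alpha isoforms alone were more even, at 0.491 to 1.81 CPM per kb. The untested Pcdhb1 was far below the other beta genes, at 0.0900 CPM per kb. Pcdhb17 had the highest CPM, at 17.3, 19.1, 18.7, 19.5 and 15.4 CPM in WT and 17.9, 16.5, 18.9, 18.4 and 17.1 CPM in Dp1Tyb. Means were 17.98 ± 1.67 CPM in WT against 17.8 ± 0.984 CPM in Dp1Tyb (SD, n = 5), with an estimated log2 fold change equal to -0.016 ± 0.072 (SE, edgeR adjusted p = 0.938). Its values overlapped throughout and it held 10.8% of the beta counts in each genotype. Pcdhb9 measured 12.3, 14.9, 16.1, 13.9 and 13.5 CPM in WT and 15.8, 15.99, 14.1, 15.7 and 13.9 CPM in Dp1Tyb. The Dp1Tyb values all lay within the WT range, 3 of 5 above the WT mean, with an estimated log2 fold change equal to 0.10 ± 0.079 (SE, edgeR adjusted p = 0.584). Pcdhb22, the last gene of the cluster, measured 12.6, 17.1, 13.3, 12.8 and 13.4 CPM in WT and 13.1, 13.999, 13.8, 13.9 and 12.05 CPM in Dp1Tyb. Only the replicate 2 WT mouse stood away from the other 9, and the comparison gave an estimated log2 fold change equal to -0.049 ± 0.088 (SE, edgeR adjusted p = 0.832).

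The smallest unadjusted p-values of the beta cluster belonged to Pcdhb18, Pcdhb8 and Pcdhb6, all with positive estimates. Pcdhb18 measured 6.90, 8.74, 7.10, 7.39 and 6.71 CPM in WT and 7.496, 10.2, 7.56, 9.30 and 7.71 CPM in Dp1Tyb. The replicates 2 and 4 of Dp1Tyb exceeded every WT mouse while the other 3 did not, with an estimated log2 fold change equal to 0.20 ± 0.11 (SE, edgeR adjusted p = 0.428). Pcdhb8 measured 3.37 ± 0.695 CPM in WT against 3.99 ± 0.545 CPM in Dp1Tyb (SD, n = 5), with an estimated log2 fold change equal to 0.24 ± 0.15 (SE, edgeR adjusted p = 0.485). Pcdhb6 measured 3.33 ± 0.395 CPM in WT against 3.81 ± 0.505 CPM in Dp1Tyb (SD, n = 5), with an estimated log2 fold change equal to 0.19 ± 0.12 (SE, edgeR adjusted p = 0.503). Pcdhb12 had the lowest CPM of the tested beta genes and a narrow spread, 2.87 ± 0.108 CPM in WT against 2.99 ± 0.221 CPM in Dp1Tyb (SD, n = 5), with an estimated log2 fold change equal to 0.064 ± 0.10 (SE, edgeR adjusted p = 0.803).

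In the gamma cluster, Pcdhgc5 measured 85.9, 95.7, 86.4, 97.6 and 94.3 CPM in WT and 95.6, 94.9, 96.8, 106 and 99.6 CPM in Dp1Tyb. All 5 Dp1Tyb values were above the WT mean, and those of replicates 4 and 5 were above the highest WT mouse. Means were 92.0 ± 5.44 CPM in WT against 98.6 ± 4.55 CPM in Dp1Tyb (SD, n = 5), with an estimated log2 fold change equal to 0.100 ± 0.047 (SE, edgeR adjusted p = 0.356). Its 95% interval, -0.0021 to 0.20, was the narrowest of the 53 genes, and 902 bases (16.4%) of its variable exon are shared with the read-through model Gm38182. Pcdhgc3, an isoform also known to inhibit Wnt signalling, measured 21.2, 26.8, 21.6, 24.8 and 24.5 CPM in WT and 21.0, 21.9, 20.4, 20.1 and 24.7 CPM in Dp1Tyb. In Dp1Tyb, 3 of 5 mice were below every WT mouse, while replicates 2 and 5 lay within the WT range. The estimated log2 fold change was -0.14 ± 0.078 (SE, edgeR adjusted p = 0.427). Pcdhgc4, the isoform required for neuron survival, measured 8.74, 10.48, 13.9, 12.5 and 9.37 CPM in WT and 10.52, 12.6, 11.8, 13.5 and 12.4 CPM in Dp1Tyb. The groups overlapped, with an estimated log2 fold change equal to 0.15 ± 0.12 (SE, edgeR adjusted p = 0.604), which was 0.072 without WT replicate 1 and 0.24 without WT replicate 3.

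**Figure D3:**
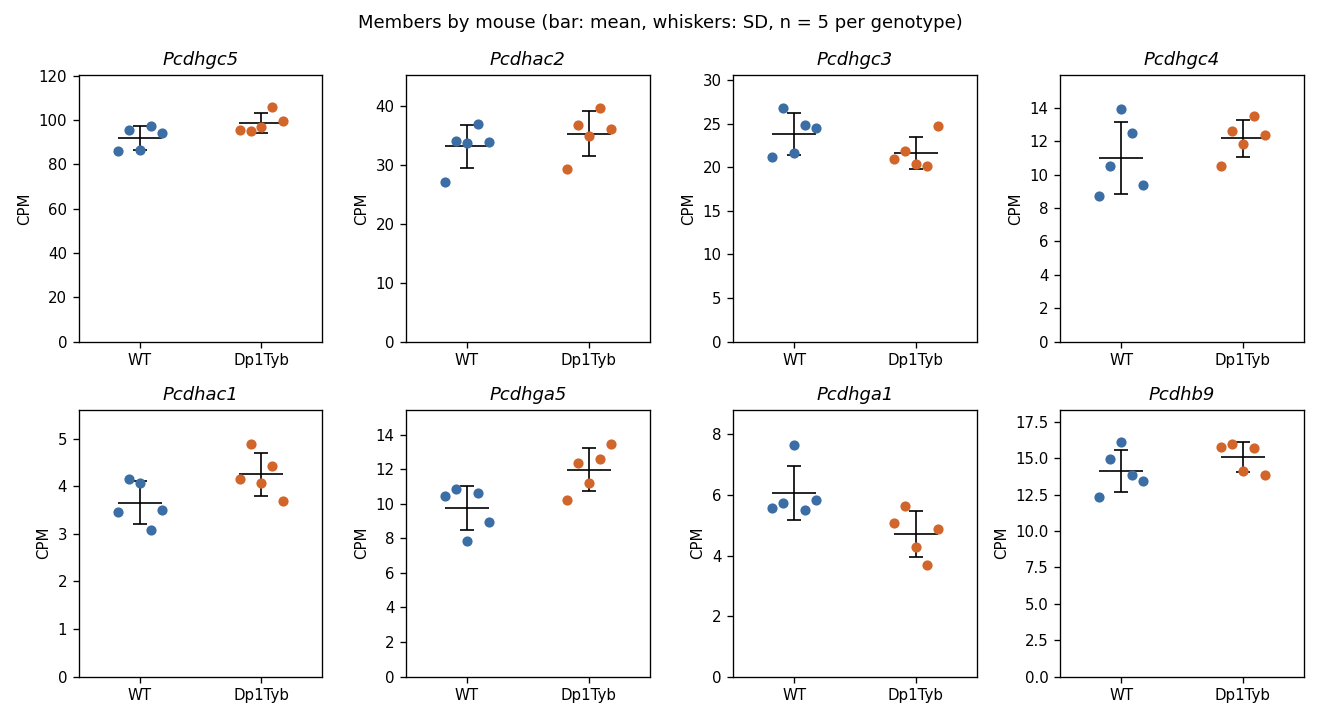
CPM of 8 genes in each mouse (points, WT in blue and Dp1Tyb in orange; bar, mean; whiskers, SD, n = 5; each axis starts at 0). The C-type isoforms, Pcdhb9 and the gamma genes with the smallest p-values, Pcdhga1 and Pcdhga5, are shown, and in each panel at least 1 Dp1Tyb mouse lies within the WT range.

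The gamma genes under the unadjusted threshold were the A-type isoforms Pcdhga5 and Pcdhga1, with opposite signs. Pcdhga5 measured 10.48, 10.9, 7.86, 10.6 and 8.95 CPM in WT and 10.2, 12.4, 11.2, 12.6 and 13.5 CPM in Dp1Tyb. In Dp1Tyb, 4 of 5 mice were above every WT mouse, and replicate 1 was not. Means were 9.76 ± 1.30 CPM in WT against 11.97 ± 1.26 CPM in Dp1Tyb (SD, n = 5), with an estimated log2 fold change equal to 0.29 ± 0.10 (SE, edgeR adjusted p = 0.233) and an unadjusted p of 0.0151. Pcdhga1, the first gene of the cluster, measured 5.57, 5.74, 7.64, 5.51 and 5.83 CPM in WT and 5.07, 5.63, 4.28, 3.70 and 4.88 CPM in Dp1Tyb. In Dp1Tyb, 4 of 5 mice were below every WT mouse and replicate 2 was not, while the WT mouse of replicate 3 was well above the rest. Means were 6.06 ± 0.897 CPM in WT against 4.71 ± 0.746 CPM in Dp1Tyb (SD, n = 5), with an estimated log2 fold change equal to -0.35 ± 0.13 (SE, edgeR adjusted p = 0.243) and an unadjusted p of 0.0168. Across all alternative fits the estimate of Pcdhga5 lay between 0.22 and 0.36 (adjusted p 0.153 to 0.391) and that of Pcdhga1 between -0.43 and -0.26 (adjusted p 0.160 to 0.5005). Pcdhga3, the alternate gamma isoform with the highest level, measured 17.1 ± 3.04 CPM in WT against 14.8 ± 0.592 CPM in Dp1Tyb (SD, n = 5), with an estimated log2 fold change equal to -0.20 ± 0.10 (SE, edgeR adjusted p = 0.402). Its WT values ranged from 13.8 to 20.3 CPM and its Dp1Tyb values from 13.9 to 15.4 CPM. Pcdhgb8, the lowest tested gamma gene, had an estimated log2 fold change equal to -0.19 ± 0.17 (SE, edgeR adjusted p = 0.632).

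Summed over the genes of a cluster, the genotypes overlapped as well. The alpha sum was 54.0, 64.1, 63.1, 68.9 and 60.3 CPM in WT replicates 1 to 5 and 52.2, 67.8, 63.8, 69.8 and 67.4 CPM in Dp1Tyb. The beta sum was 157, 183, 162, 169 and 159 CPM in WT and 166, 167, 163, 172 and 158 CPM in Dp1Tyb. The gamma sum was 258, 306, 284, 305 and 283 CPM in WT and 264, 292, 291, 301 and 302 CPM in Dp1Tyb. The lowest alpha and gamma sums of each genotype were those of the replicate 1 mice, which was not the case for the Dp1Tyb beta sum. Mean alpha sums were 62.1 ± 5.46 CPM in WT against 64.2 ± 7.05 CPM in Dp1Tyb (SD, n = 5), a difference of 0.046 in mean log2. For beta they were 166 ± 10.1 CPM in WT against 165 ± 5.21 CPM in Dp1Tyb (SD, n = 5), a difference of -0.0064. For gamma they were 287 ± 19.8 CPM in WT against 290.2 ± 15.3 CPM in Dp1Tyb (SD, n = 5), a difference of 0.017. Each of these log2 differences was smaller than the SD of the log2 sums within a genotype, which was 0.15 for alpha, 0.069 for beta and 0.091 for gamma. Leaving out each mouse in turn moved them over -0.0033 to 0.12, -0.025 to 0.028 and -0.021 to 0.051, with the lowest alpha and gamma values without WT replicate 1 and the highest without Dp1Tyb replicate 1. Without the 3 libraries of lowest choroid plexus level they were 0.11, 0.0066 and 0.067. Without the gene of highest mean count in each cluster they were -0.0080, -0.0055 and -0.024, so the alpha and gamma differences turned sign.

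**Figure D4:**
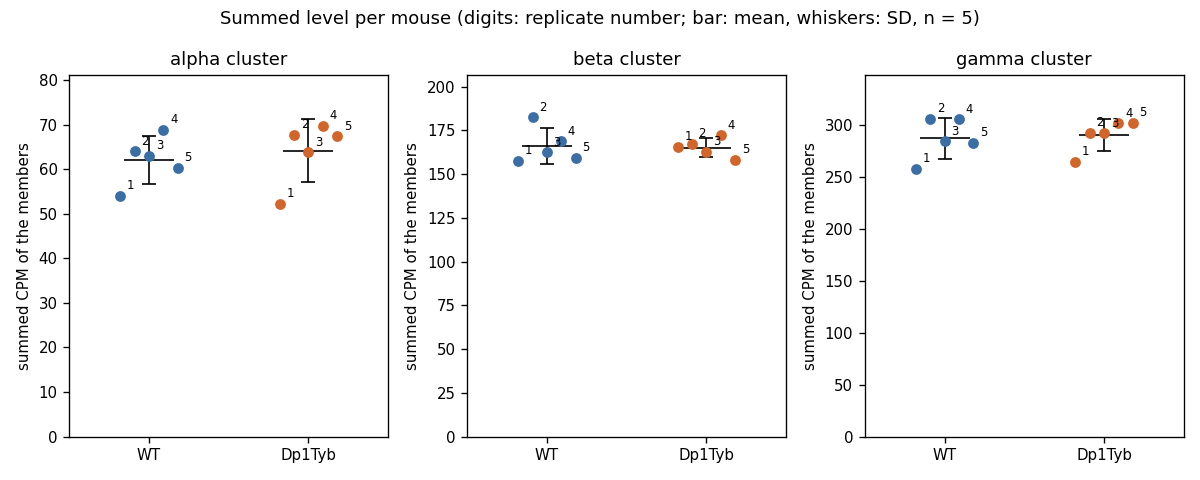
Summed CPM of the alpha, beta and gamma genes in each mouse (points, with the replicate number beside them; bar, mean; whiskers, SD, n = 5; axes start at 0). The genotypes overlap in every cluster, and the replicate 1 mice have the lowest alpha and gamma sums of their genotype.

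The composition of the clusters also overlapped between the genotypes. Gamma took 55.7% ± 0.574 of the summed CPM of the 58 genes in WT and 55.8% ± 0.940 in Dp1Tyb (SD, n = 5). Beta took 32.3% ± 1.01 and 31.8% ± 1.59, and alpha 12.04% ± 0.502 and 12.3% ± 0.867. Pcdhac2 alone held 53.5% ± 2.22 of the alpha sum in WT and 55.2% ± 1.36 in Dp1Tyb, and alternate alpha isoforms held 40.6% ± 2.12 and 38.1% ± 1.97. Pcdhgc5 alone held 32.1% ± 1.27 of the gamma sum in WT and 34.0% ± 1.602 in Dp1Tyb. All C-type gamma isoforms together held 44.2% ± 0.978 in WT and 45.6% ± 1.62 in Dp1Tyb, the A-type 39.5% ± 1.17 and 39.0% ± 0.992, and the B-type 16.3% ± 0.598 and 15.3% ± 0.951. The ranges of the genotypes overlapped for each of these shares. Since CPM per gene was not divided by length here, longer genes weigh more in the shares.

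**Figure D5:**
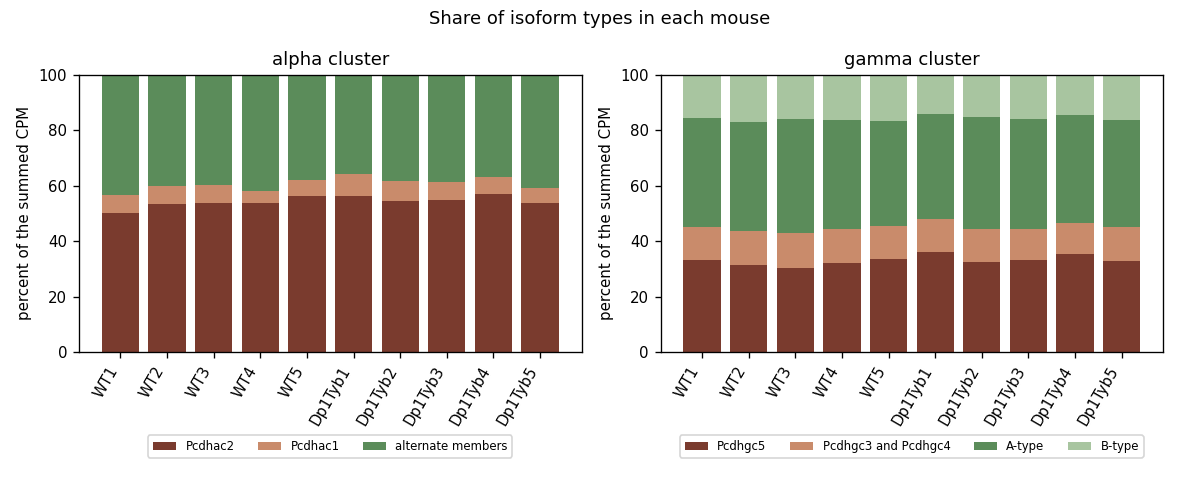
Percent of the summed CPM of the alpha cluster (left) and the gamma cluster (right) taken by each isoform type in each of the 10 mice, as stacked bars from 0 to 100. Pcdhac2 took 50.2% to 56.9% of alpha and Pcdhgc5 30.5% to 36.2% of gamma, and the ranges of WT and Dp1Tyb overlap for every type.

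None of the genes in 3 chosen lists related to the clustered protocadherins passed the test. Of 21 regulators of isoform choice, which include CTCF, cohesin and its loaders, DNA methyltransferases and SETDB1, 0 were called by edgeR (1.11% of all genes were), 1 had an unadjusted p under 0.05 (14.4% of all genes did), and the median log2 fold change was -0.013. Setdb1, a histone methyltransferase that acts on the cluster chromatin, had a level of 61.4 ± 1.23 CPM in WT against 56.9 ± 3.94 CPM in Dp1Tyb (SD, n = 5), an estimated log2 fold change equal to -0.11 ± 0.048 (SE, edgeR adjusted p = 0.327). Of 16 partners and effectors, among them kinases, neuroligins and the WAVE complex, 0 were called, 5 had an unadjusted p under 0.05 (14.4% of all genes did), and 14 had positive and 2 negative estimates (48.7% of all genes had positive ones), with a median of 0.056 against -0.0041 over all genes. Fyn, a kinase known to bind alpha isoforms, was 125 ± 2.26 CPM in WT against 134 ± 2.75 CPM in Dp1Tyb (SD, n = 5), with no overlap between genotypes (as for 3.68% of all genes) and an estimated log2 fold change equal to 0.100 ± 0.030 (SE, edgeR adjusted p = 0.157). Nlgn1, a synaptic adhesion protein, had 0.14 ± 0.047 (SE, edgeR adjusted p = 0.203). Of 12 non-clustered protocadherins, which are encoded elsewhere in the genome, 0 were called and 0 had an unadjusted p under 0.05. The smallest p-values there were those of Pcdh20, at 0.12 ± 0.057 (SE, edgeR adjusted p = 0.375), and Pcdh19, at 0.13 ± 0.068 (SE, edgeR adjusted p = 0.389). The numbers called and under the unadjusted threshold were the same with DESeq2 and limma voom for each of these 3 lists.

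The other genes of the locus did not stand apart. None of the 4 tested genes inside it (Gm10544, Taf7, 3222401L13Rik and Gm29994), the 3 before it (Hars2, Zmat2 and Gm6756) and the 3 after it (Diaph1, Hdac3 and Rell2) was called by edgeR, DESeq2 or limma voom. Of these 10, Hdac3, which encodes a histone deacetylase, had the smallest unadjusted p and was alone under 0.05. Hdac3 was 91.4 ± 3.47 CPM in WT against 99.3 ± 4.68 CPM in Dp1Tyb (SD, n = 5), an estimated log2 fold change equal to 0.12 ± 0.042 (SE, edgeR adjusted p = 0.215). Taf7, a single-exon gene of the general transcription machinery between the beta and gamma clusters, was 6.21 ± 0.384 CPM in WT against 6.62 ± 1.02 CPM in Dp1Tyb, and its log2 fold change was 0.095 ± 0.11 (SE, edgeR adjusted p = 0.720).

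Some counts carry an uncertainty from the annotation. The span of an antisense gene lies over the variable exon of 15 of the 58 genes, among them Pcdhga1, Pcdhgc3, Pcdha6, Pcdha12, Pcdhb12 and Pcdhgb8. The untested Pcdhga10, Pcdha11 and Pcdha4 are also among them. The strand setting of the counting was not stated. On the same strand, 39.8% of the variable exon of Pcdhga4 overlaps Pcdhgb1, 13.6% of that of Pcdha7 overlaps Gm37388 and 8.86% of that of Pcdha6 overlaps Gm37013. Reads with several alignments were discarded, which lowers counts where variable exons of different isoforms are near-identical.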

How the data were processed

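RNA from the whole hippocampus of each mouse was made into stranded poly(A) libraries. The authors trimmed the reads with Trim Galore, mapped them to GRCm38 with TopHat2 2.0.12, discarded reads with several alignments and counted reads per gene with HTSeq. The deposited counts, whole numbers per gene, were used here. The deposited table of normalized signal and the authors' DESeq2 1.6.3 comparison, which holds log2 fold changes and p-values, were not used. Counts were tested with edgeR 4.0.16 in R 4.3.3 (quasi-likelihood F-test, TMM, filterByExpr, no covariates, Benjamini-Hochberg over all 17237 genes kept, call at adjusted p under 0.05). The alternatives were DESeq2 1.42.0, limma 3.58.1 (voom), RLE factors, no filter, at least 1 CPM in 5 samples, a replicate block, a choroid plexus covariate and leaving out each mouse. Scripts were tested on simulated counts. Symbols and exons came from GENCODE M21, except that the gene ENSMUSG00000007440, also named Pcdha11 there, is called Pcdha10 after RefSeq. The genes, gene lists and marker lists were chosen with earlier results of these data known. Named with values were the C-type isoforms and, per cluster, the 3 genes with the highest CPM, the lowest tested gene and the 3 with the smallest p, and from each related list the 2 with the smallest p, of which 1 is not reported here. The tested genes inside the locus and the 3 nearest on either side were also named. The labels give no batch or date, so no values within batches could be computed.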

Additional observations from a re-analysis of the deposited data

Results flagged for a closer look

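Of the 48 groups of 5 mice examined (the summed levels and the named genes in each genotype), 4 held a mouse that stood apart by Dixon's criterion, where chance alone flags about 1 group in 20, or 2.4 groups. The summed gamma level of Dp1Tyb replicate 1 was 264 CPM, against 291 to 302 CPM in the other Dp1Tyb mice. The Pcdha12 level of the same mouse was 2.43 CPM, against 4.48 to 5.004 CPM in the others. The Pcdhb22 level of WT replicate 2 was 17.1 CPM, against 12.6 to 13.4 CPM in the other WT mice. The Pcdhga1 level of WT replicate 3 was 7.64 CPM, against 5.51 to 5.83 CPM in the other WT mice, and without that mouse the log2 fold change of Pcdhga1 was -0.26 (edgeR adjusted p = 0.385).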

How the results depend on the processing

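In all 19 fits 0 alpha, 0 beta and 0 gamma genes were called. The number of genes called over the whole table, 191, was 507 with DESeq2, 315 with a replicate block, 105 to 218 when leaving out each mouse in turn (105 without WT replicate 4 and without Dp1Tyb replicate 2, 111 without Dp1Tyb replicate 3, 127 without WT replicate 5) and 108 without the 3 libraries of lowest choroid plexus level, a choice made after the data were seen, with fewer samples. The causes of the other shifts were not tested. The replicate block left 0 clustered protocadherins called (unadjusted 1 alpha, 1 beta and 3 gamma). Correlations between same-numbered mice of both genotypes were -0.069 to 0.28, against -0.45 to 0.47 for other numbers, and 1 of 10 mice was closest to its own number. The same-number values lay within the range of the others, so this check cannot tell whether the numbers mark pairs. The numbers were not taken as pairs. The median level per kb with all exon bases was 0.488 CPM for alpha and 1.83 CPM for gamma, against 1.05 and 3.18 over all genes of the cluster with unshared bases, a change of length alone with the counts as they are. The estimates of 4 genes changed sign in at least 1 alternative. Pcdha9 was 0.12 without the 3 libraries named, and Pcdhb22 was 0.023. Pcdha12 was 0.073 with the choroid plexus covariate and -0.19 to 0.052 when leaving out each mouse, Pcdhb17 -0.066 to 0.015 and Pcdhb22 -0.082 to 0.035. The other 17 of the 21 clustered protocadherins named with values kept their direction in all 18 alternatives, though the size of some, such as Pcdha1, Pcdhac2 and Pcdhgc4, moved by over 1.5 times when 1 mouse was left out. In the alpha cluster 3 of 14 genes had too few counts to be tested.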
